A study of Mus musculus with 4 samples.

Results

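Diploid mouse blastocysts of parthenogenetic origin, grown from oocytes activated without sperm, were compared with diploid blastocysts that developed from zygotes (fertilized), using 2 of the 4 Affymetrix arrays of the series. Both arrays held RNA of embryos collected on day 4, after 96 hours, and each held 1 pool of 30 embryos, amplified in a pair of cycles before labelling. The other 2 arrays held parthenogenetic and fertilized embryos of the same age that had been made tetraploid by fusion, and the series uses them as a stand-in for a repeat. The labels give no strain, activation agent or sex of the embryos, and describe the groups as alike in morphology. The deposited value is the MAS5 signal, the Affymetrix summary of a set of probes on a linear scale. A probe set was kept when its signal reached 500 on at least 1 of the 2 diploid arrays, which left 10853 of 45037 probe sets that are not controls (24.1%) and 6356 named genes, each represented by its brightest probe set.

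Differences are parthenogenetic minus fertilized, on the scale log2(signal + 10), on which a step of 1 is 2-fold for a bright gene and less than the true fold for a dim one. Signals are written as parthenogenetic against fertilized, with the difference in brackets. With 1 array a condition there is no replicate and no test, so every difference describes these 2 pools and has no error of its own. "Higher" and "lower" below therefore describe signals and carry no call. Where the dimmer signal lay at or below the control floor of its array, the 95th percentile of 27 bacterial control probe sets, the fold is given as "at least", with the floor in place of that signal. A lower signal from a pool cannot tell fewer cells of a type from less RNA per cell.

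A blastocyst holds an outer epithelium, the trophectoderm, which pumps fluid and later forms placenta, and an inner cell mass that sorts into epiblast, the source of the fetus, and primitive endoderm, which lines the yolk sac. Parthenogenetic embryos carry maternal chromosomes only. They lack a Y chromosome, the paternal copies of imprinted genes, and the paternal X chromosome that is imprinted for silencing in early mouse embryos. Embryos at this stage also take up and sense amino acids actively. When amino acids run short or other stresses act, the kinase Gcn2 and its relatives phosphorylate the initiation factor eIF2, translation of most mRNAs falls, and the transcription factor Atf4 is made and switches on genes of amino acid supply, the integrated stress response.

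Both arrays had the same trimmed mean signal, and their control floors were 113 (parthenogenetic) and 145 (fertilized), with 55.4% and 47.1% of probe sets above them. For the Actb control, the 3' probe set divided by the middle one, which rises as amplified transcripts get shorter, gave 5.13 and 7.55, and for Gapdh it gave 3.86 and 3.72. The 18S rRNA control probe sets were brighter on the fertilized diploid array, at 1438 to 3249, than on the parthenogenetic diploid one, at 541 to 1023. On the tetraploid arrays they were at 532 to 1152 (parthenogenetic) and 567 to 1424 (fertilized). The part of these technical differences in the results was not tested.

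Most genes had like signals in both kinds of diploid embryo. The median difference over 6356 genes was -0.01, with quartiles of -0.35 and 0.35 and an SD of 0.65. At least 2-fold higher in parthenogenetic embryos were 309 genes (4.86%), and 236 were at least 2-fold lower (3.71%). Counted as probe sets, 533 were higher (4.91%) and 449 lower (4.14%). These shares are the background against which the gene groups below are read. As a yardstick, 8.57% of the genes differed at least 2-fold between these arrays, 9.22% between the diploid and tetraploid parthenogenetic arrays and 4.201% between the diploid and tetraploid fertilized arrays. A 2-fold difference of a single gene is therefore about as frequent between the pair of parthenogenetic pools as between the origins.

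Dim genes supplied most of the large differences. Among 5368 genes that reached 500 on both arrays, 127 (2.37%) were at least 2-fold higher and 97 (1.81%) lower. The other 182 of the higher genes reached it only on the parthenogenetic array and the other 139 of the lower genes only on the fertilized array, where the threshold itself favours a difference. Just inside it lay Scyl2, at 500.05 against 391, and Wdr73, at 382 against 500.2. Just outside lay Elac2, at 416 against 499.9, and Gga1, at 388 against 499.6.

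Listed imprinted genes and Y-linked genes were set apart, and whether genes outside that list are imprinted was not examined. The 15 genes with the largest excess and the 15 with the largest deficit in parthenogenetic embryos are named here. They were ranked on the signals as deposited, also where the dimmer one lay below its floor. With the floor in its place, 9 of the genes in excess differed by at least 1.73 to 1.99, less than some genes outside the 15 such as Lonrf3 (2.36) and Sgms2 (2.27), so their place among the largest is not established. Slc40a1, ferroportin, the iron exporter, was the brightest of those in excess, at 13888 against 1913, a 7.23-fold excess (2.85). The tetraploid signals were 25455 against 5138 (2.31), and a further probe set gave 3100 against 393. The parthenogenetic signal exceeded the fertilized one in both pairs and with both probe sets. The cathepsin L-like protease gene Ctsll3, of a family known from the placenta, had signals of 3175 against 314 (3.297) and in the tetraploid pair 4565 against 386 (3.53). Morc4, an X-linked ATPase gene of chromatin, had 1629 against 194 (3.004) and 2052 against 170.4 (3.51). Both genes were thus high on the 2 parthenogenetic arrays and low on the 2 fertilized ones.

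Other genes, Amn and Pfkp, were high on the parthenogenetic diploid array alone. Amn, amnionless, which anchors the endocytic receptor cubilin at the apical membrane of primitive endoderm, had a signal of 2001 against 267, and 353 against 415 in the tetraploid pair, differences of 2.86 and -0.23. Pfkp, the platelet isoform of the glycolytic enzyme phosphofructokinase, had 2478 against 405 and then 457 against 399.7 (2.59 and 0.19). In both cases the parthenogenetic diploid array stood above 3 arrays that lay close together. Stc2, also among the 15, is described with the stress response genes.

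The remaining genes among the 15 with the largest excess were dim. Pcolce2, an enhancer of procollagen processing, was at 507 against 25.8 (at least 3.35-fold), and the RNA-binding protein gene Msi2 at 519.8 against 31.9 (at least 3.43-fold). Rce1, a protease of prenylated proteins, was at 521 against 44.4 (at least 3.43-fold) and the potassium channel gene Kcnk1 at 549 against 53.5 (at least 3.62-fold). For Pcolce2, Msi2 and Rce1 the tetraploid signals, 293 against 118, 247 against 161 and 374 against 255, lay the same way and closer together, and for Kcnk1 both tetraploid signals were below their floors. Tbc1d8b (X-linked, at least 3.32-fold), the endoplasmic reticulum autophagy receptor Retreg1 (3.95-fold), the ubiquitin ligase Trim26 (3.34-fold), the thiamine transporter Slc19a3 (3.97-fold) and Anapc11 (3.901-fold) complete the set, all with the fertilized diploid signal below the floor. A further probe set of Anapc11, a subunit of the anaphase-promoting complex, gave 423 against 431.

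Among the genes with the largest deficit, Epas1, the hypoxia-inducible factor 2 alpha, was the brightest, at 365 against 9153, 24.4-fold lower (-4.61). The tetraploid pair gave 383 against 8337 (-4.41), so that the parthenogenetic signals lay near each other and far below both fertilized ones. The same held for the noncoding RNA Lncenc1, at 56.3 against 3008 and 148 against 5355 (at least 24.5-fold and 33.5-fold lower). Mbnl2, a splicing regulator of the muscleblind family, had 67.2 against 2391 and 5.401 against 2238 (at least 19.5-fold and 14.03-fold), and its other kept probe set differed less, by -2.70 and -3.06. Slc38a1, a sodium-coupled transporter of neutral amino acids, had 105 against 2398 and 23.97 against 4278 (at least 19.5-fold and 26.8-fold), and its other kept probe set differed by -1.71 and -1.01. Each of these 4 genes separated the origins in both pairs.

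The other genes with a large deficit were not as far apart in the tetraploid pair. The protease inhibitor gene Wfdc15a was at 345 against 4024 (-3.51) and 1686 against 2562 (-0.60). Elovl7, an elongase of long-chain fatty acids, was at 231 against 1276 (-2.41) and 715 against 703 (0.02), and its dimmer kept probe set differed by -0.89. For Elovl7, and for the RNA-binding protein gene Carhsp1 at 136 against 727 and 479 against 418, the tetraploid arrays lay between the diploid ones. Zcchc17, Pask, 1700003E16Rik, Slc66a1 (a lysosomal exporter of amino acids), Cdk10 and Slf1 had fertilized signals between 509 and 680.02 and parthenogenetic signals below the floor, at least 4.21-fold to at least 5.601-fold lower, and their rank is likewise not established. None of these 6 differed 2-fold in the tetraploid pair. BC080696 and Depp1, also in this set, reversed between the pairs and are given with the genes that did so.

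**Figure D1:**
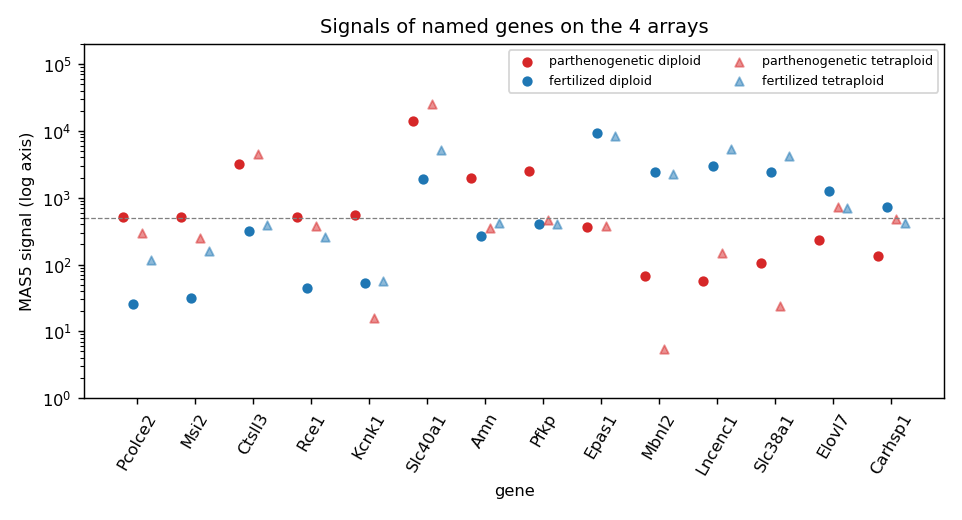
MAS5 signals of 14 of the genes with the largest differences on all 4 arrays, on a log axis; circles are diploid and triangles tetraploid pools, red parthenogenetic and blue fertilized, and the dashed line is the signal of 500 used as the threshold. Slc40a1, Ctsll3, Epas1, Mbnl2, Lncenc1 and Slc38a1 separate red from blue in both pairs, while Amn and Pfkp are high only on the parthenogenetic diploid array.

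Genes of the integrated stress response were higher in parthenogenetic diploid embryos nearly as a whole. Of 52 listed genes on the array, 43 were kept, and 41 of these had a higher signal, against 48.9% of all genes. Their median difference was 0.71, beside -0.01 for all genes. At least 2-fold higher were 12 (27.9%, background 4.86%) and 1 was at least 2-fold lower. Of the 43, 10 reached 500 only on the parthenogenetic array and 0 only on the fertilized one. The 33 that reached it on both had a median of 0.63, with 7 at least 2-fold higher (21.2%, against 2.37% of all such genes). The same 43 genes lay the other way in the tetraploid pair, with a median of -0.40, 11 higher and 32 lower, beside a median of -0.10 for all genes. The difference between the pairs was not tested.

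Of 6 kept transcription factors of the pathway 5 were higher, 2 of them at least 2-fold. Atf4, its central regulator, which is controlled mainly by translation, had nearly the same mRNA signal in both, at 14659.5 against 14791 (-0.01). Its relative Atf5 was at 518 against 194 (1.37) and in the tetraploid pair at 547 against 228 (1.23). Atf5 was the 1 gene of the 12 that was at least 2-fold higher in both pairs. Nupr1, a stress-induced chromatin protein, was at 1167 against 472 (1.29), but its dimmer probe set, below the threshold, was at 379 against 428. Cebpb (0.59), Cebpg (0.30) and Jdp2 (0.57), further bZIP factors that can pair with Atf4, were less than 2-fold higher. The death-associated factor Ddit3 (also called Chop) did not reach the threshold, at 277 against 356, nor did Atf3, at 355 against 9.72, the latter below the floor.

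Among roles set within the list after values were seen, that of brakes, growth inhibitors and secreted products had the highest median difference. Stc2, a secreted glycoprotein, was at 1036 against 114 (at least 6.77-fold higher). Sesn2, which restrains mTORC1, was at 2080.2 against 837 (1.303), and Ddit4, a further mTORC1 inhibitor, at 7468 against 3071 (1.28). Chac1, which degrades glutathione, was at 999.9 against 451 (1.13), and Trib3, a pseudokinase that feeds back on Atf4, at 1977 against 919.8 (1.096). Of 9 kept genes in this role 9 were higher and 7 at least 2-fold so, with a median of 1.17. The others past 2-fold were Herpud1, of endoplasmic reticulum protein disposal, at 1000.2 against 393 (1.32), and the lipoprotein receptor Vldlr, at 1363 against 599.6 (1.17). Eif4ebp1, a repressor of cap-dependent translation, differed by 0.10, and the mitochondrial protease Lonp1 by 0.04. Between the tetraploid arrays the median of the 9 was -0.66.

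Enzymes that make amino acids and one-carbon units were all higher by less than 2-fold. All 10 kept genes had a higher signal, with a median of 0.56 and a range of 0.21 to 0.94. Psat1, of the serine pathway, was at 21082 against 10995 (0.94), Psph, the last enzyme of that pathway, at 827 against 451 (0.86) and Shmt2, which passes serine's carbon to folate in mitochondria, at 1499 against 909 (0.71). Asparagine synthetase, Asns, the usual reporter of the pathway, was at 5365 against 4214 (0.35). Between the tetraploid arrays 9 of the 10 were lower, with a median of -0.56.

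Transporters of the list were higher in 6 of 7 cases. Slc7a5, the large neutral amino acid exchanger, was at 3233 against 863 (1.89), and its partner chain Slc3a2 at 3708 against 2177 (0.77). The arginine and lysine transporter Slc7a3, an X-linked gene, was at 4501 against 1002 (2.16). Their tetraploid signals were 1524 against 1157, 2387 against 2209 and 1417 against 1427. Slc38a2, a target of Atf4 elsewhere, went the opposite way, at 1605 against 4237 (-1.395) and 649 against 3858 (-2.55). It was the only listed gene at least 2-fold lower, and was so in both pairs.

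**Figure D2:**
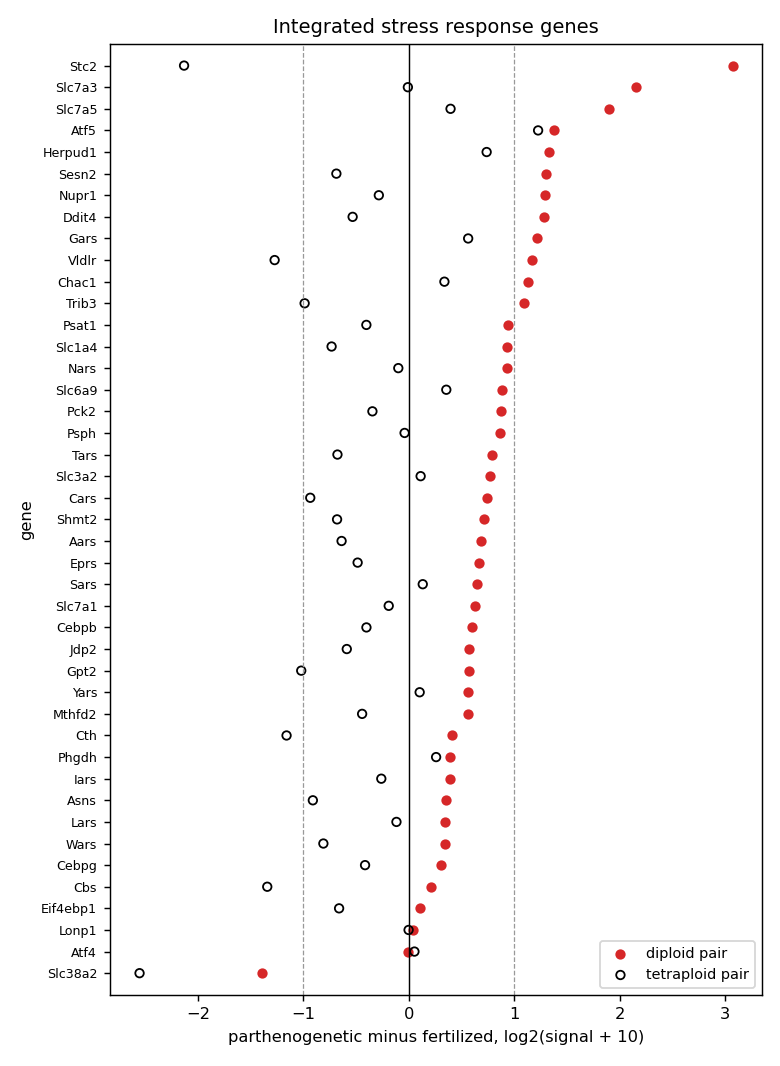
Difference of each of the 43 kept integrated stress response genes in log2(signal + 10), parthenogenetic minus fertilized; filled red circles are the diploid pair and open circles the tetraploid pair, and dashed lines mark 2-fold. In the diploid pair 41 genes lie right of 0, and in the tetraploid pair 32 lie left of it.

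Atf4 and its C/EBP partners are known to bind composite elements that read TGATGNAAN on one strand. These letters were sought on both strands of RefSeq promoters, from 250 bases before to 50 after the start of each gene (build GRCm38.p6). They were found in 14 of 35 kept stress response genes with a promoter entry (40%), in 142 of 5274 kept genes of any kind (2.69%) and in 3.95% of all promoters of this length. The 14 had a median difference of 0.90, and the 21 listed genes without a match 0.65. Kept genes outside the list that hold the letters had a median of -0.03 (128 genes), beside -0.01 for the 5132 genes without them, and 3.28% of the unlisted genes that were at least 2-fold higher held a match. A match describes these letters and is not a site shown to be bound, and the list was itself drawn up from known Atf4 targets. The promoters of 6 genes are printed to show where the match falls, 5 of genes past 2-fold and that of Asns, with the match in capitals and each read 5' to 3' on its own gene's strand. They lie at chr8:94386179-94386478 (plus strand, Herpud1), chr7:126625421-126625720 (minus, Nupr1), chr19:27216770-27217069 (plus, Vldlr), chr2:119350992-119351291 (plus, Chac1), chr2:152344011-152344310 (minus, Trib3) and chr6:7693160-7693459 (minus, Asns).
Herpud1: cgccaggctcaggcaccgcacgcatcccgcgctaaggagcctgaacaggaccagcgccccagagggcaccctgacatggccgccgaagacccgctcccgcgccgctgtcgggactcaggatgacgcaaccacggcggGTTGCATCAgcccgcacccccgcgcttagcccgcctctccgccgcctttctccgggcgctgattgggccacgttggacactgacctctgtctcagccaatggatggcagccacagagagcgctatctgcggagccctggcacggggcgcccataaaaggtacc
Nupr1: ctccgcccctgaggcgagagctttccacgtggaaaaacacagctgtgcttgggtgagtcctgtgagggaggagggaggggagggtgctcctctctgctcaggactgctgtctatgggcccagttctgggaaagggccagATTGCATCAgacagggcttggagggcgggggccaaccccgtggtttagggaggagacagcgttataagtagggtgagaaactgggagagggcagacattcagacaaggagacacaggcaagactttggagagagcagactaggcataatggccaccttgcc
Vldlr: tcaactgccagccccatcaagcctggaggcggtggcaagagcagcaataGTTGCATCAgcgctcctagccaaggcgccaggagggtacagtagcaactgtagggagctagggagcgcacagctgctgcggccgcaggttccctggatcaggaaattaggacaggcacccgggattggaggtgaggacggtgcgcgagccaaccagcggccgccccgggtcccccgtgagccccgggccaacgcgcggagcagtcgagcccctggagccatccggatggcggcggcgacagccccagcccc
Chac1: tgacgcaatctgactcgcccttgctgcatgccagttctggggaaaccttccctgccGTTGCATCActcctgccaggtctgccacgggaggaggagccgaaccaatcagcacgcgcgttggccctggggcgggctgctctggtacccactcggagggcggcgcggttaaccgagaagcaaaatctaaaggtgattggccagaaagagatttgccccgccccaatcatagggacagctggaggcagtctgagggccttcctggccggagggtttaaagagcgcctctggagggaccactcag
Trib3: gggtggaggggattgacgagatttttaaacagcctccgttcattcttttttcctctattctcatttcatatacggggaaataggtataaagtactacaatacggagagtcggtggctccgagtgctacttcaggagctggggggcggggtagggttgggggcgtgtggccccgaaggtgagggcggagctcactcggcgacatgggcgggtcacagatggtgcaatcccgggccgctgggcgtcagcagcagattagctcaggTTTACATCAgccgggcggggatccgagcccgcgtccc
Asns: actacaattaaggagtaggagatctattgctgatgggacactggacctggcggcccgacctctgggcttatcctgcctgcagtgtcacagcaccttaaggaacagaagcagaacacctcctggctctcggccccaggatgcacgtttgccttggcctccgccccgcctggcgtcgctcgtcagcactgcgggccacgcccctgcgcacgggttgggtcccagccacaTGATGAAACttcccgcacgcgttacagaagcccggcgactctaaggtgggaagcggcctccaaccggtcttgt
In all of these but Asns the letters lie on the opposite strand, so that the line shows their reverse complement. Gars, Slc1a4, Pck2, Tars, Aars, Jdp2, Yars and Iars also held a match, and Aars held 2.

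Aminoacyl-tRNA synthetases, which charge tRNAs, had medians of different sign by compartment, but the cytosolic group overlaps the stress response list. That list holds 11 kept cytosolic enzymes, and all 11 were higher, with a median of 0.66. All 17 kept enzymes of the cytosol together had a median of 0.62, with 14 higher. Gars, for glycine, was the only one past 2-fold, at 26619 against 11489.8 (1.21), and Nars, for asparagine, was at 42160 against 22176 (0.93). The 6 kept mitochondrial enzymes had a median of -0.14, with Yars2 at 271 against 527 (-0.93) and Lars2 at 1846 against 3366 (-0.86). The 3 scaffold genes of the synthetase complex were lower, between -0.45 and -0.06. For the tetraploid arrays the cytosolic enzymes had a median of -0.27.

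Amino acid transporters differed in both directions. Of 21 kept members of the SLC1, SLC3, SLC6, SLC7, SLC36, SLC38 and SLC43 families, 4 were at least 2-fold higher and 4 lower (both 19.05%). In all 14 were higher and 7 lower, with a median of 0.77, and in the tetraploid pair 9 were higher and 12 lower, with a median of -0.01. Besides Slc7a5 and Slc7a3, the higher ones were Slc6a14, an X-linked transporter of broad range, at 4277 against 925 (2.197), and Slc38a9, a lysosomal arginine sensor for mTORC1, at 574 against 245 (1.197). The lower ones were Slc38a1 and Slc38a2, above, the imprinted Slc38a4, and Slc43a3, now known as a purine base transporter, at 422 against 949.7 (-1.15). The 3 system A transporters (Slc38a1, Slc38a2 and Slc38a4) were thus each at least 2-fold lower, and they were in the tetraploid pair as well. Among 117 solute carriers of all kinds, 11 were higher and 11 lower, with a median of 0.02.

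Genes on the X chromosome were higher almost without exception. Of 248 kept, 237 (95.6%) had a higher signal, with a median of 0.72, or 1.65-fold, and quartiles of 0.41 and 1.08. On the autosomes the medians ran from -0.15 to 0.02. At least 2-fold higher were 69 (27.8%), against 2.29% to 5.73% of genes on an autosome, so the X chromosome supplied 22.3% of all such genes with 3.902% of the genes. For the 196 X-linked genes that reached 500 on both arrays the median was 0.66 and 20.9% were at least 2-fold higher.

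The X-linked excess ran along the whole chromosome. In 8 consecutive blocks of 31 kept genes the medians lay between 0.59 and 0.80, with 27 to 31 of the 31 genes higher in each. The spread among the genes was no wider than on the autosomes, with an interquartile range of 0.67 against 0.67. Between 0 and 0.5 lay 67 genes, between 0.5 and 1 lay 101, and 4 measured above the floor on both arrays were above 2. Those 4 were Morc4, the ubiquitin ligase Lonrf3 at 1172 against 219.8 (2.36), Slc6a14 and Slc7a3. Tbc1d8b, with its fertilized signal below the floor, was higher by at least 1.73. Others of the brighter genes were Mbnl3, the X-linked relative of Mbnl2, at 15801 against 4992 (1.66), the trophoblast gene Plac1 at 14829.5 against 5375 (1.46) and Fhl1, a LIM-domain protein, at 3143 against 853 (1.87). The high-mobility group gene Hmgb3 was at 2634 against 654 (1.99) and in the tetraploid pair at 1227 against 1067 (0.20).

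Only 11 X-linked genes were not higher. Xist, the noncoding RNA that coats the X chromosome to be silenced, was at 6429 against 15357 (-1.25), and its 3 probe sets ranged from -3.19 to -1.25. The next were Zfp280c at 625 against 941 (-0.58), Pqbp1, of splicing, at 1729 against 2229.9 (-0.36) and the sterol isomerase Ebp at 1342 against 1643 (-0.29). The others lay between -0.22 and 0. Genes known to escape inactivation lay inside the quartiles of the chromosome: Eif2s3x differed by 1.06, Kdm6a by 0.70, Ddx3x by 0.61 and Kdm5c by 0.60. In both pairs 207 of the 248 genes were higher.

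**Figure D3:**
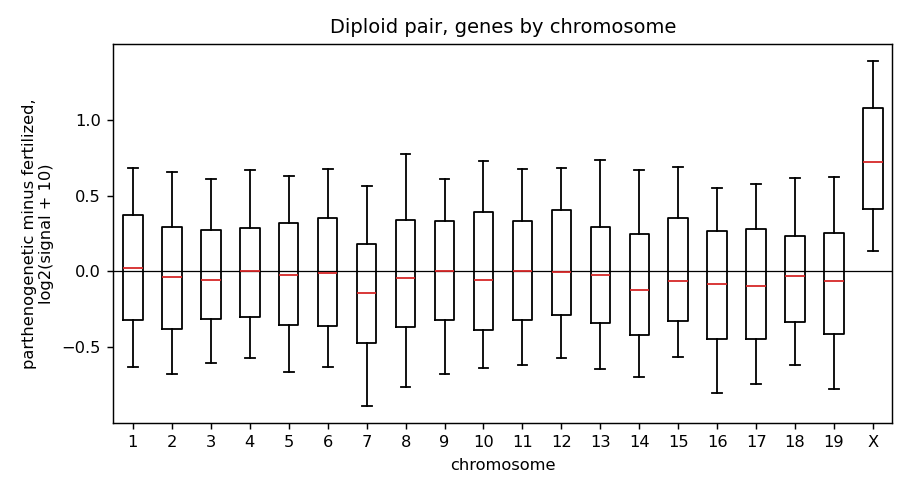
Differences of the kept genes in the diploid pair by chromosome, as log2(signal + 10), parthenogenetic minus fertilized; red lines are medians, boxes quartiles and whiskers the 10th and 90th percentiles. The X chromosome has a median of 0.72 and every autosome one between -0.15 and 0.02.

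Imprinted genes included some of the widest differences. Of 33 paternally expressed genes on the array 12 were kept, and 9 were at least 2-fold lower, also in the tetraploid pair. Of these 9, 7 were kept only through the fertilized array, where they are high, and of the 5 kept on both arrays 2 (Jade1 and Xist) were lower and 3 higher. The list counts Snhg14 and Xist among its members. Slc38a4, Sfmbt2, Gab1 and Snhg14 had parthenogenetic diploid signals of 4.29, 7.07, 35.02 and 9.46, all below the floor. The fertilized signals were 3098, 3449, 3285 and 786. Kcnq1ot1 and Peg3 were below the floor as well, while Plagl1 (146 against 2473) and Jade1 (595 against 3043) kept a signal above it. The 3 higher ones were Gnas (0.75), Impact (0.61, with 3 kept probe sets from -0.06 to 1.28) and Inpp5f (0.27). The list counts Gnas as paternally expressed as a whole gene. It has 1 kept probe set, and which transcripts of the gene that reads was not examined, so it is not a clear exception. Of 14 kept maternally expressed genes 12 were higher and 3 at least 2-fold so, the growth restrainer Phlda2 at 2225 against 118 (at least 14.5-fold), the adaptor Grb10 at 5154 against 845 (2.59) and the noncoding RNA Meg3 at 8549 against 3101 (1.46). Ube3a (0.74), Osbpl5 (0.75), Ppp1r9a (0.70) and Igf2r (0.50) lay below 2-fold. Phlda2, Cobl and Osbpl5 were kept only through the parthenogenetic array. In the tetraploid pair 8 of the 14 were higher and 6 lower, with a median of 0.25. Phlda2 and Grb10 were at least 2-fold higher there, and Meg3 differed by 0.57. Eif2s3y, the 1 Y-linked gene kept, was at 1.43 against 1608.

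**Figure D4:**
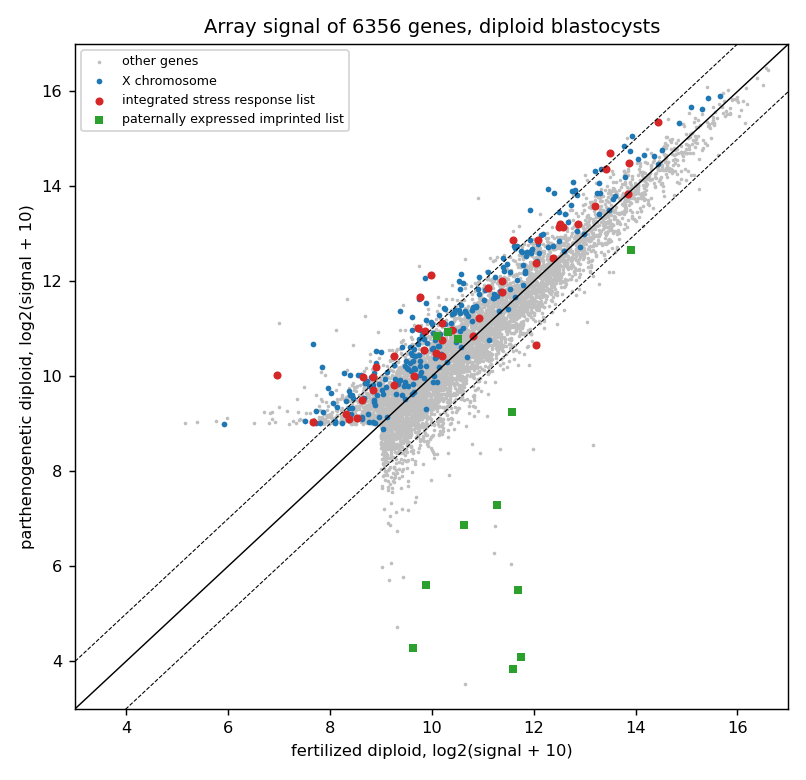
Signals of the 6356 kept genes in fertilized (horizontal) and parthenogenetic (vertical) diploid blastocysts, as log2(signal + 10); the solid line is equality and dashed lines mark 2-fold. X-linked genes and the stress response list lie mostly above equality, and 9 of the 12 kept paternally expressed imprinted genes lie below the lower dashed line.

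Most of the kept markers of the 3 blastocyst lineages reached the threshold on both arrays, and few differed 2-fold. Transcription factors of the trophectoderm had a median of 0.30, with 0 of 15 past 2-fold either way. Cdx2 was at 3680.03 against 5496 (-0.58), Tead4 at 672 against 994 (-0.56), Gata3 at 4964 against 5422 (-0.13) and Eomes at 14670.3 against 8014 (0.87). Elf5 differed by 0.85, and Tfap2c was at 10124 against 9186. Of the 15 factors, 10 were higher and 5 lower, the same counts as in the tetraploid pair. Of 31 kept surface and epithelial genes of this lineage, 2 were at least 2-fold higher, Plac1 and the tight junction protein Ocln at 2165 against 1010.4 (1.09). The lectin gene Lgals3 was lower, at 1197 against 3302 (-1.46).

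Epiblast and pluripotency genes had a median of -0.26, with 18 of 28 lower. Pou5f1 was at 837 against 581 (0.52), Sox2 at 1877 against 1546 (0.28) and Nanog at 1651 against 2409 (-0.54). These 3 core factors differed in direction. Sall1, a zinc finger repressor, was lower at 457 against 1262 (-1.44) and in the tetraploid pair at 265 against 1291 (-2.24). Dppa3, which protects maternal DNA methylation, was lower at 2059 against 4712 (-1.19), and Nodal, a TGF-beta ligand of the epiblast, was higher at 557 against 235 (1.21).

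Primitive endoderm genes had a median of -0.11, with 8 of 23 higher. The transcription factor Sox17 was lower at 2303 against 4712 (-1.03) and Sox7 higher at 724 against 376 (0.93). The apical uptake receptor stood out, since both of its subunits were higher: Amn, above, and Cubn, cubilin, at 5611 against 2408 (1.22). Their partner receptor Lrp2 differed by -0.49 and the adaptor Dab2 by -0.02. Of the early markers of the lineage, Gata6 differed by -0.38 and Pdgfra by -0.06.

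Few markers of other RNA sources reached the threshold. Among cumulus and granulosa cell markers 0 of 14 reached 500 on either diploid array, with summed signals of 2029 (parthenogenetic) and 1567 (fertilized). By their brightest probe sets, 9 and 4 of the 14 were above the floors, where 55.4% and 47.1% of all probe sets were. A signal of 500 was reached by 0 of 10 fibroblast markers (1132 and 1062) and 0 of 4 erythroid and blood markers (85.6 and 335). Of 30 oocyte transcripts, 3 were kept (Dppa3, Khdc3 and Ooep), and their list summed to 12952 and 15409.9. Dppa3, also on the epiblast list, was at 2059 against 4712, Khdc3 at 7704 against 7291 and Ooep at 1043 against 1240. Of 13 genes of the 2-cell stage, 3 were kept, with sums of 10142 and 14994. Eif1a alone, at 8551 against 12414, gave most of both sums. Of 21 genes of giant cells and placenta, 3 were kept (Ctsll3, Plac8 and Rhox5), with sums of 8229 and 3874, and 8723 and 2272 in the tetraploid pair. Ctsll3, above, gave the larger part of that difference. Tpbpa was at 187 against 57.0, the latter below the floor, and Hand1 at 247 against 307. The part of such RNA in the results was not tested.

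Nuclear genes for mitochondrial ribosomes and the respiratory chain were lower as groups, by little per gene. Of 140 kept, 115 were lower, with a median of -0.37, beside -0.01 for all genes. For the 66 mitochondrial ribosomal proteins the median was -0.42, with 55 lower and 5 at least 2-fold so (7.58%, background 3.71%). Mrpl22 was at 4689 against 11404 (-1.28), Mrpl49 at 332 against 724 (-1.102) and Mrpl18 at 1090.2 against 2298 (-1.07). The group was lower in the tetraploid pair too, at -0.50, where the median of all genes was -0.10. Of the 5 genes past 2-fold, however, 0 were at least 2-fold lower there.

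All 9 genes of complex III, which passes electrons to cytochrome c, were lower, with a median of -0.47. Complex I, which oxidizes NADH, had a median of -0.30 (30 of 38 lower), cytochrome c oxidase -0.18 (9 of 10) and ATP synthase -0.23 (12 of 17). The tetraploid medians of these 3 groups were -0.19, 0.07 and -0.16, beside -0.10 for all genes. Ndufb7 of complex I was lower at 4446 against 9177 (-1.04). Its fellow subunit Ndufa1, which lies on the X chromosome, was the 1 gene of these groups at least 2-fold higher, at 34421 against 15504 (1.15). Of 46 kept cytosolic ribosomal protein genes 41 were lower, with a median of -0.21 and 0 past 2-fold. Their tetraploid median was -0.09, close to that of all genes. Proteasome subunits had a median of -0.19, with the X-linked Psmd10 alone past 2-fold, at 772 against 329 (1.21).

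**Figure D5:**
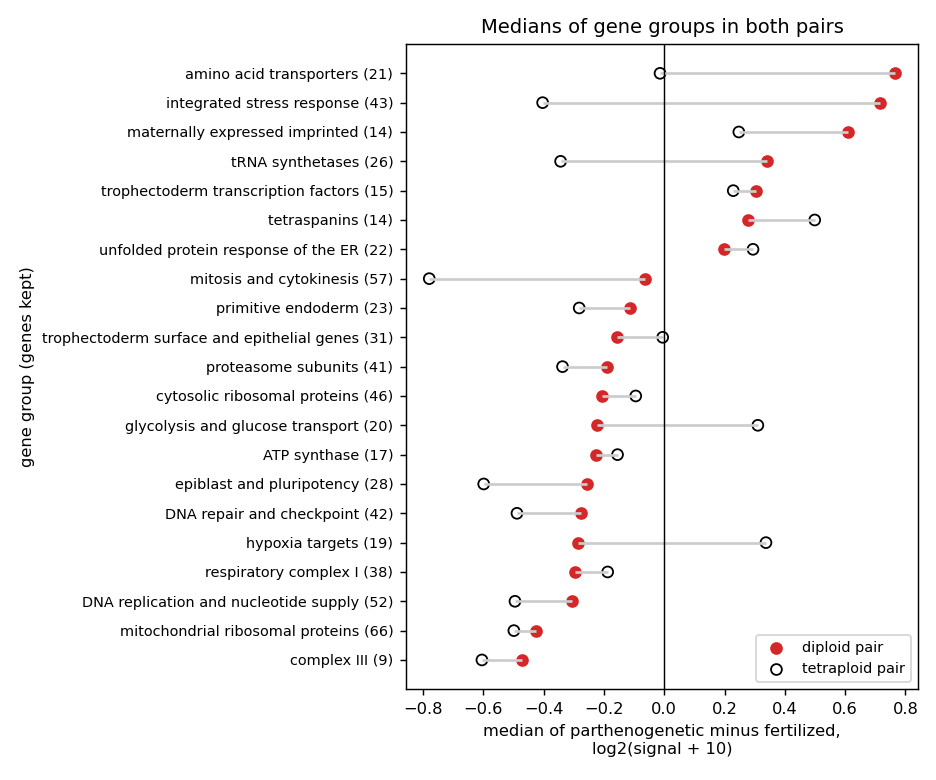
Median difference, parthenogenetic minus fertilized in log2(signal + 10), of 21 gene groups; the number of kept genes is in brackets, filled red circles are the diploid pair and open circles the tetraploid pair. The integrated stress response lies at 0.71 and -0.40, and complex III at -0.47 and -0.60.

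DNA replication genes were lower as a group, while the median of mitotic genes lay close to 0. Of 52 kept replication and nucleotide supply genes, 42 were lower, with a median of -0.30. Gins4, of the replicative helicase, was at 289 against 723 (-1.29), Prim1, of primase, at 1959 against 3868 (-0.98) and Pold2, of DNA polymerase delta, at 366 against 723 (-0.96). DNA repair genes had a median of -0.28 (30 of 42 lower). The damage sensors of nucleotide excision repair led that list, with Xpc at 212 against 731 (-1.74), Ddb2 at 597 against 1202 (-0.997) and Ddb1 at 3572 against 6842 (-0.94). Of 57 mitotic genes the median was -0.06, against -0.78 in the tetraploid pair, where 54 were lower. The mitotic kinase Plk1 was higher at 1402 against 434 (1.67) and in the tetraploid pair lower, at 427 against 855 (-0.99).

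Other genes of chromosomes and the cell cycle differed singly. Of 30 centriole and centrosome genes 3 were at least 2-fold lower, Haus8 of the augmin complex at 321 against 1092 (-1.74), the centriole assembly gene Cenpj at 208 against 598 (-1.48) and gamma-tubulin, Tubg1, at 290.00 against 691 (-1.22). None of the 3 was 2-fold lower in the tetraploid pair. Tubgcp3, of the gamma-tubulin complex, was at least 2-fold higher (1.100), and the list had 17 of 30 higher and a median of 0.07. The maintenance DNA methyltransferase Dnmt1 was at 2681 against 6175 (-1.201). Cyclin D1, Ccnd1, which drives entry into S phase, was the 1 gene past 2-fold among 20 kept G1 cyclins and inhibitors, at 892 against 436 (1.02).

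Metabolic genes gave small medians and a few large single differences. Glycolysis and glucose transport had a median of -0.22 (12 of 20 lower), with Pfkp the exception past 2-fold. The tetraploid median of this list was 0.31. Hypoxia targets had medians of -0.28 and 0.34, a list that holds Epas1 and Stc2. Of 20 genes of iron handling, 2 were at least 2-fold higher, Slc40a1 and the transferrin receptor Tfrc, at 5708 against 1597 (1.83) and 5951 against 1576 (1.91). Alad, an early enzyme of heme synthesis, was lower at 546 against 1325 (-1.26) and 387 against 829.9 (-1.08). The whole list had a median of 0.12, with 12 higher and 8 lower.

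In lipid metabolism the sphingomyelin synthase Sgms2 was higher at 1087 against 218 (2.27), and at 1379.9 against 301 in the tetraploid pair. Psap, the precursor of the saposins that assist lysosomal sphingolipid breakdown, was higher at 33257 against 14599.6 (1.19), and the phosphatase Sgpp1 was lower at 1486 against 3206 (-1.105). Of 22 genes of this pathway 16 were higher, with a median of 0.24, and in the tetraploid pair 9 were higher and 13 lower (-0.06). The few fatty acid genes past 2-fold were lower. Besides Elovl7, the fatty acid binding protein Fabp5 was at 15807 against 38624 (-1.29), the dienoyl-CoA isomerase Ech1 at 748 against 1812 (-1.27) and Cpt1a, the gate of mitochondrial fatty acid import, at 423 against 932 (-1.12). Among 21 synthesis and storage genes and 29 oxidation genes, 0 were at least 2-fold higher (background 4.86%). In each list 2 were at least 2-fold lower (9.52% and 6.90%, background 3.71%). Of these lower genes, 1 of the synthesis list and 0 of the oxidation list were at least 2-fold lower in the tetraploid pair. GPI anchor remodelling was split, with Pgap1 higher at 3891 against 1335 (1.54) and Pgap2 lower at 640.4 against 1823 (-1.495), as in the tetraploid pair (2.05 and -1.496).

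Of 53 kept actin genes, 33 were higher, 6 of them at least 2-fold (11.3%), and 1 was at least 2-fold lower. In the tetraploid pair 27 were higher and 26 lower, with a median of 0.006. Of the 6, 4 are X-linked. Junction genes were split (17 higher, 16 lower), as were those of integrins and matrix (13 and 12). Talin, Tln1, which links integrins to actin, was at 766 against 203 (1.87), and filamin A, Flna, an X-linked crosslinker, at 1065 against 454 (1.21). Fhl1, thymosin beta 4 (Tmsb4x, 1.13) and moesin (Msn, 1.07) are X-linked as well. The GTPase Rac1 was at 9178 against 3343 (1.45) by a probe set shared with other transcripts, while its other kept probe set gave -0.31. Rhoc was lower at 605 against 1919 (-1.65). Among 28 genes of endocytosis, 4 were at least 2-fold higher (14.3%) and 0 lower: Amn, Cubn, Vldlr and the early endosome tether Eea1, at 856 against 324 (1.38). In the tetraploid pair these 4 differed by -0.23, 0.32, -1.27 and -0.06.

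Some signalling lists held shares past 2-fold above the background of 4.86% higher and 3.71% lower, each from few genes. Of 21 p53 targets 4 were higher (19.05%), the kinase Plk2 at 721 against 218 (1.68), the RNA-binding protein Zmat3 at 2002 against 703 (1.496), the X-linked death receptor Eda2r at 601 against 222 (1.399) and Sesn2. All of these but Sesn2 were at least 2-fold higher in the tetraploid pair too. Xpc, also a p53 target, was the 1 that was at least 2-fold lower (4.76%). Of 13 immediate early genes, Gadd45b, Dusp1 and Errfi1 were higher (1.28, 1.28 and 1.08, 23.1%), and Dusp4 and Btg1 lower (-1.33 and -1.23, 15.4%). Of 17 Wnt pathway genes 3 were higher (17.6%) and 1 lower (5.88%). Besides Ccnd1, the ligand escort Wls was at 769 against 321 (1.24), the scaffold Axin1 at 923 against 421 (1.11) and the ligand Wnt3a at 367 against 866 (-1.22). The chaperones of the endoplasmic reticulum had a median of 0.20 (16 of 22 higher, Dnajc3 past 2-fold at 1287 against 588), and heat shock genes one of 0.04 with 0 of 22 past 2-fold.

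The tetraploid pair repeated part of the pattern. Of the 309 genes at least 2-fold higher, 223 (72.2%) were higher in it and 103 (33.3%) at least 2-fold so, where 4.83% of all genes were. Of the 236 lower genes, 181 (76.7%) were lower and 65 (27.5%) at least 2-fold so, where 7.57% of all genes were. The repeated genes make up 33.6% of the genes higher and 13.5% of those lower in the tetraploid pair. Among the higher genes, 35 of 69 X-linked ones (50.7%) and 68 of 240 others (28.3%) repeated, a difference that was not tested. Across the 6356 genes, which are not independent replicates, the differences of the pairs correlated with r = 0.44, and across the 6107 autosomal ones with r = 0.39. The pairs share no array.

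A few genes were past 2-fold in opposite directions, 14 of the higher and 7 of the lower ones. Both tetraploid signals of Kcnk1 and of Fhdc1, counted among the higher ones, were below the floors. Stc2 was the clearest of the higher, at 1036 against 114 in the diploid and 104 against 491 in the tetraploid pair, with the lower signal below the floor each time, and a further, dimmer probe set gave 241 against 6.02 and 81.3 against 224. Ryk, a Wnt co-receptor, was at 1998 against 650.3 and 447 against 1181, while its other kept probe set differed by less than 2-fold, 0.53 and -0.55. Vldlr, of the stress response list, was at 1363 against 599.6 and 343 against 844. Depp1, an autophagy regulator known as a FOXO target, was at 325 against 1974 and then 577 against 102, and Sdhaf1, an assembly factor of succinate dehydrogenase, at 193 against 558 and 439 against 98.3, the last below its floor. In these genes a parthenogenetic pool of one ploidy sat on the side of the fertilized pool of the other.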

How the data were processed

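The values the authors deposited are linear intensity values, 1 for each probe set on each array. Per the submitters' processing notes they were made with MAS5; its version and all other steps are not given in the sources used here. Each array had a mean of 500.0 with 2% trimmed at each end, so the deposited scaling was kept. Symbols came from the platform annotation, updated by gene number to RefSeq (GRCm38.p6): 9600 kept probe sets had 1 symbol, and 1253 had none or several and enter no gene count. A gene is the kept probe set with the highest mean over 4 arrays. Counts of 2-fold differences, medians and promoter matches were computed with Python 3.11.15 (numpy 2.4.6, pandas 2.3.3), after a check on simulated data. With 1 array a condition no test, SE or batch check was possible, and probe-level files and scan dates were not used here.

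The comparison, the 58 gene lists and the 59 families named by symbol were chosen with earlier results of these data known, and the patterns for solute carriers and the roles within lists were set or corrected after values were seen. Named genes are the 15 largest differences in each direction (listed imprinted and Y-linked genes apart), up to 4 leading and 2 opposed members of a list, usual markers, and 3 genes a direction that oppose the tetraploid pair. Genes named beyond that were chosen after their values were seen. Other scalings, pseudocounts, thresholds and probe set choices were tried as alternatives.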

Additional observations from a re-analysis of the deposited data

Results flagged for a closer look

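The following differed in direction between the diploid and the tetraploid pair. Each pair has 1 array an origin, so the difference between the pairs was not tested.

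The median difference of the integrated stress response genes was 0.71 in the diploid and -0.40 in the tetraploid pair. That of the aminoacyl-tRNA synthetases, which share members with it, was 0.34 and -0.34, and that of hypoxia targets was -0.28 and 0.34. Set beside the medians of all genes, -0.01 and -0.10, each list lies on opposite sides. For Actb, the 3' probe set divided by the middle one also changed direction. It gave 5.13 (parthenogenetic) against 7.55 (fertilized) in the diploid pair and 9.28 against 5.55 in the tetraploid pair. For Gapdh it gave 3.86 against 3.72 and 5.22 against 4.08. The part of such differences in these values was not tested.

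Single genes past 2-fold in opposite directions were Anapc11 (593 against 103, then 103 against 612, differences of 2.41 and -2.46) and Stc2 (3.07 and -2.13), both on the signals as deposited, with the dimmer one below the floor in each pair. With the floor in its place the differences were at least 1.96 and -1.96 in size for Anapc11, and 2.76 and -1.64 for Stc2. Ryk differed by 1.605 and -1.38, and its other kept probe set by 0.53 and -0.55. BC080696 had 343 against 2595 and then 426 against 65.9 (-2.88 and 2.52), and the last signal lay below its floor, which bounds the tetraploid difference at 1.99 or more. Depp1 differed by -2.56 and 2.39, and Sdhaf1 by -1.49 and 2.05, the latter at least 2.03 with the floor in place of its fertilized signal. For Anapc11 a further probe set, below the threshold, differed by -0.027 and -0.77, so that its reversal rests on 1 probe set whose sequence may be shared with other transcripts.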

How the results depend on the processing

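No paired analysis was possible because each condition has 1 array, and for the same reason no array could be left out. Of 11 alternatives, those that changed the signal threshold moved the counts by over 1.5 times. With a signal of 250 or more, 1426 probe sets were at least 2-fold higher and 1163 lower (700 and 515 genes). With 1000 or more the counts were 256 and 236 (164 and 139 genes), and without a filter 8389 and 7451 (3035 and 2610 genes). The other alternatives (pseudocounts of 1 and 50, common median, quantile and loess scaling, a mean of 500 over all 4 arrays, averaged probe sets, and no probe sets of shared sequence) kept the counts within 1.5 times. Common median scaling moved the median of all genes from -0.01 to -0.09 and the share of higher genes among those past 2-fold from 56.7% to 46.9%.

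No list median past 0.5 changed sign, but 162 list values and 65 gene values moved in size, 33 of the lists under common median scaling. The median of paternally expressed genes lay between -4.03 and -1.11, the latter without a filter, and that of tetraspanins between 0.203 and 0.66. The stress response median lay between 0.64 and 0.78 over the alternatives, that of the X chromosome between 0.60 and 0.75, of mitochondrial ribosomal proteins between -0.50 and -0.38, and of amino acid transporters between 0.27 and 0.80. Among named and list genes 4 values reversed: Anapc11 was -0.027 with a signal of 250 or more and without a filter, and without probe sets of shared sequence Rac1 was -0.31 and the sorting gene Vps8 0.97, all through another probe set of the gene. Of 104 genes past 2-fold with several kept probe sets, 83 had 1 sign in all of them. With 1 array a condition the precision of a value is unknown, and below the control floors a signal is not a measurement of the gene.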

Other observations

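Chromosome 7 had the lowest median of the autosomes in the diploid pair, -0.15, with 31 of 397 genes at least 2-fold lower (7.81%) and 14 higher. Without the listed imprinted genes it was 28 of 387. In the tetraploid pair its median was -0.15, inside the range of the other autosomes.

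Some small families, picked by their values from the 59, lay mostly on one side in the diploid pair, where 48.9% of all genes were higher. All 6 genes for 14-3-3 proteins, phosphoserine adaptors, were higher, by 0.05 to 0.30 in the diploid pair. Their medians were 0.16 in the diploid and 0.54 in the tetraploid pair. All 4 kept acyl-CoA synthetases, which activate fatty acids, were higher in the diploid pair, with a median of 0.76. In the tetraploid pair 2 were higher and 2 lower, with a median of 0.26. The largest diploid differences were those of Acsl5, at 2469.8 against 1315, and the X-linked Acsl4, at 909 against 487. Of 14 tetraspanins, membrane organizers, 12 were higher (0.28 and 0.50), and of 14 zinc transporters 10 were (0.30 and 0.27). Tspan13, at 861 against 344, and Slc39a7, at 2218 against 1048, were past 2-fold in these last families. Neither was at least 2-fold higher in the tetraploid pair.

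Among bright genes on no list, chosen after their values were seen, the nucleoside diphosphate kinase Nme1 was at 2258 against 8478 in the diploid and 3262 against 1849 in the tetraploid pair. The transcription factor Cebpa was at 2746 against 965 and 3972 against 1226, and the sialomucin Podxl at 1041 against 231 and 122 against 171. The amyloid precursor gene App was at 467 against 1378 and 52.8 against 1659.5. Of the 1253 kept probe sets with no single symbol, 47 were at least 2-fold higher and 73 lower, with differences from -7.13 to 3.70.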
